A study of Mus musculus with 3 samples.

Results

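Endothelial cells (ECs) of mouse bone marrow (BM) were compared between the late embryo (E18.5) and the adult. The E18.5 ECs came from the library named E18.5 EC, and the adult ECs were picked out of the library of adult BM cells. ECs were chosen by their own counts in a targeted panel: a cell needed at least 20 molecules, at least 5 molecules of Pecam1 and Kdr together, at least 5% of its molecules from these genes, and no molecule of Ptprc. Pecam1 encodes CD31, Kdr a receptor for vascular endothelial growth factor, and Ptprc the blood cell antigen CD45. The rule took 2953 of 4043 cells of E18.5 EC (73.0%) and 1663 of 7948 cells of the adult library (20.9%), which was 4616 of the 24875 cells in the 3 libraries of the series. All mice were wild type on a C57/B6 background, carried no allele or treatment, and are given as embryonic or adult with no closer age for the adults. E18.5 EC held cells sorted from the marrow of pooled embryos, gated on CD31 with endomucin by the series text but on CD31 by the methods. The adult library held cells of pooled mice left after magnetic beads had removed mature blood cells with lineage antibodies, with no sort for ECs. A further library, E18.5 BM cells, was prepared from other pooled embryos by lineage depletion like the adult library, and the same rule took 373 of its 12884 cells (2.90%). The methods also give further bead steps for adult marrow, against CD45 among others, and whether this adult library went through them is not stated, which bears on its share of ECs and on its Ptprc cells. There was 1 library a side, so each interval is a 95% interval that covers counting error and no variation among animals. Intervals of levels and ratios treat molecules as independent, so they are too narrow where few cells held many molecules. No difference was tested, and stage cannot be told apart from library, pool of animals, sort and depth.

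The endothelium of marrow is a network of arteries, capillaries and sinusoids. Arterial ECs carry the gap junction protein connexin 37, the product of Gja4, and Notch target genes such as Hey1, while the wide sinusoids carry the scavenger receptor Stab1. ECs supply haematopoietic stem and progenitor cells (HSPCs) with stem cell factor (Kitl) and the chemokine Cxcl12, and the panel was built to ask which marrow cells make Wnt ligands and their frizzled receptors. Wnt ligands are secreted proteins that need Wls for export and act through frizzled receptors on beta-catenin or on other pathways. Before birth marrow vessels are still growing, and adult vessels are largely quiescent.

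The chosen cells held 266075 molecules at E18.5 and 246036 in the adult, with a median of 75 and 114 molecules per cell. Each chosen cell had Pecam1, and 76.6% of E18.5 and 82.7% of adult ECs also had Kdr. Levels are given as molecules per 10000 panel molecules of the pooled cells. Pecam1 stood at 2768 per 10000 (2749 to 2789) at E18.5 and 1555 (1539 to 1571) in the adult, and Kdr at 214 (209 to 220) and 276 (269 to 282). These values describe the choice of cells and support nothing else, but Pecam1 alone took up more of the E18.5 molecules and thereby of the scale. At the threshold, 23 E18.5 and 19 adult ECs had exactly 5 molecules of Pecam1 and Kdr, and 13 and 28 cells stayed outside with 4. In the adult 175 cells had at least 5 such molecules and stayed outside with under 5% of their total, against 1 cell at E18.5. Cells that met the other terms but had Ptprc were left out, 270 at E18.5 (8.38%) and 238 adult cells (12.5%), and no other step was taken against doublets. The compared libraries shared 38 cell barcodes, 6 of them between ECs, where free draws from the 884736 possible barcodes would share 36.3. Beside Pecam1 and Kdr, the defining endothelial marker in hand was Vwf, present in 1243 E18.5 and 443 adult ECs. Markers of other cell types differed between the libraries. Of 15 listed stromal, mural, bone and cartilage markers in the panel, 2 were at 0 in E18.5 ECs (Adipoq and Acan) and 1 in adult ECs (Adipoq). Summed, they gave 67.2 molecules per 10000 in E18.5 ECs, of which Ccn3 gave 41.1, and 793 in adult ECs, of which Ccn3 gave 19.6. In cells of the same libraries with Ptprc and neither Pecam1 nor Kdr, the sums were 25.3 and 3518. In ECs the markers ran from 0 to 54.8% of a cell's molecules at E18.5 and from 0 to 71.0% in the adult. They made up at least 5% of the molecules in 55 E18.5 ECs (1.86%) and 664 adult ECs (39.9%), and their part in the results was not tested except where values without those cells are given.

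Of 105 targets besides the rule's own that had a molecule in both files, 86 had at least 20 molecules in the E18.5 and adult ECs together and were compared. Levels were called different by size alone, at 2-fold or more. By this rule 26 targets were higher in E18.5 ECs (30.2% of the 86), 35 were higher in adult ECs (40.7%), and 25 lay within 2-fold. The median ratio over the 86 was 1.01. The largest excess at E18.5 was that of Wnt2, followed by the cell cycle genes Top2a, Mki67, Cdk1 and Ccne1 and by Apln and Ptn. On the adult side the largest were genes of bone and cartilage, and these were as high or higher in adult cells with Ptprc. Levels are set beside those in cells of the same library that had Ptprc and neither Pecam1 nor Kdr, called Ptprc cells here (175 at E18.5 and 450 in the adult, median depth 65 and 80.5). These are blood cells that may express targets themselves, so their levels are a reference and no measure of free RNA or misassigned molecules. Shares of cells are given for cells thinned at random to 50 molecules, with 2243 E18.5 and 1583 adult ECs deep enough and 710 and 80 left out as too shallow.

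**Figure D1:**
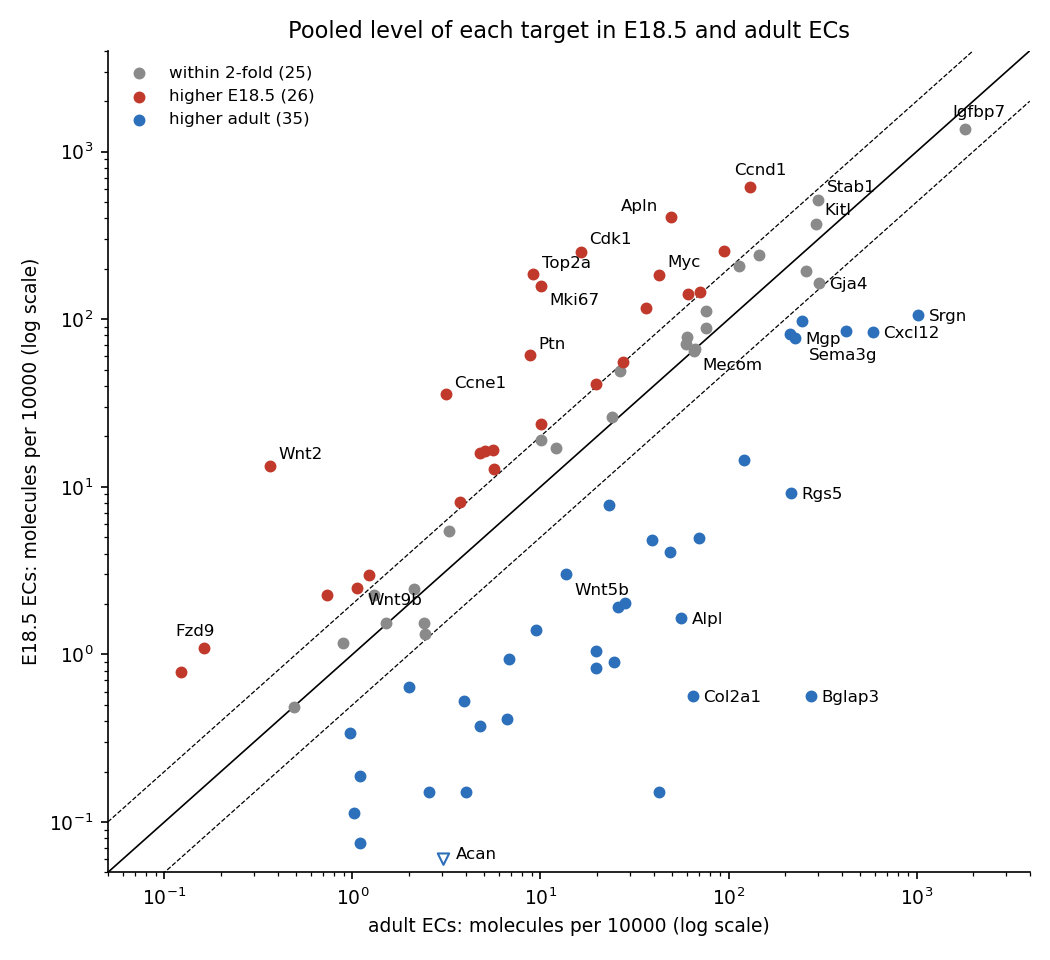
Pooled level of each of the 86 compared targets in adult ECs (x axis) and E18.5 ECs (y axis), in molecules per 10000 on log scales; red points were at least 2-fold higher at E18.5 (26), blue points at least 2-fold higher in the adult (35) and grey points within 2-fold (25). The solid line marks equal levels and the dashed lines 2-fold; the open triangle is Acan, with 0 molecules at E18.5. Wnt2, Top2a, Mki67, Cdk1, Apln and Ptn lie farthest above the lines, and Bglap3, Col2a1 and Rgs5 far below.

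Genes of the dividing cell were higher at E18.5 throughout their list. All 6 listed Wnt target and cell cycle genes were at least 4.30-fold higher in E18.5 ECs, where 30.2% of all compared targets were called so, with a median ratio of 13.3, against 1.01 over all. Top2a, the topoisomerase that untangles chromosomes before mitosis, had 4928 molecules in E18.5 ECs and 225 in adult ECs, or 185 (180 to 190) and 9.14 (7.99 to 10.4) per 10000, with a ratio of 20.3 (17.7 to 23.3). Mki67, which encodes the proliferation antigen Ki-67, stood at 157 (153 to 162) and 10.1 (8.86 to 11.4), with a ratio of 15.6 (13.7 to 17.8). Cdk1, the kinase that drives entry into mitosis, stood at 251 and 16.4, with a ratio of 15.3 (13.8 to 16.9). The G1 cyclin Ccne1 had 951 molecules against 77, with a ratio of 11.4 (9.05 to 14.6). In the adult these molecules lay in few cells, since 10 cells held 51.1% of the Top2a and 54.0% of the Mki67 molecules.

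A molecule of Mki67, Top2a or Cdk1 was present in 48.7% (46.6 to 50.8) of thinned E18.5 ECs and 7.58% (6.32 to 9.0) of adult ECs. All of these together were found in 593 E18.5 ECs (20.1%) and 31 adult ECs (1.86%), unthinned. In Ptprc cells the shares with any of these genes were 33.6% (25.5 to 42.5) in E18.5 EC and 53.5% (48.6 to 58.4) in the adult, but 72.7% (71.3 to 74.0) in E18.5 BM cells, so their order depended on the E18.5 library. Their levels of Mki67, 212 and 346 per 10000 in these E18.5 libraries and 177 in the adult, gave a ratio of 1.20 (1.06 to 1.35) with E18.5 EC and 1.96 (1.86 to 2.06) with E18.5 BM cells, and those of Top2a ratios of 1.47 (1.33 to 1.62) and 2.50 (2.40 to 2.61). ECs of E18.5 BM cells, which share the adult side of the comparison, had Top2a at 253 (237 to 270), Mki67 at 193 (179 to 208) and Cdk1 at 239 (223 to 255) per 10000. Thus the level stayed high in E18.5 ECs that had not been sorted. The cell cycle was not called from phases.

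Ccnd1 and Myc, which are targets of beta-catenin and of other growth signals, were also higher. Ccnd1, a cyclin of early G1, had 16268 molecules in 2537 E18.5 ECs and 3219 in 972 adult ECs, at 611 (602 to 621) and 131 (126 to 135) per 10000, with a ratio of 4.67 (4.50 to 4.85). Its thinned share was 79.7% against 38.8%, beside 28.9% and 15.7% in Ptprc cells, in which the ratio of levels was 11.7 (9.81 to 14.1). Myc stood at 183 and 42.6, with a ratio of 4.30 (4.02 to 4.6), while Ptprc cells stood at 196 in E18.5 EC and 353 in the adult, but at 449 in E18.5 BM cells. In ECs without any molecule of Mki67, Top2a or Cdk1, 1333 at E18.5 and 1448 in the adult, Ccnd1 and Myc still stood at 564 against 119 and at 183 against 39.8 per 10000. The ratios there, 4.73 (4.52 to 4.96) and 4.6 (4.24 to 5.0), were as large as over all ECs. This set was chosen after the first results.

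**Figure D2:**
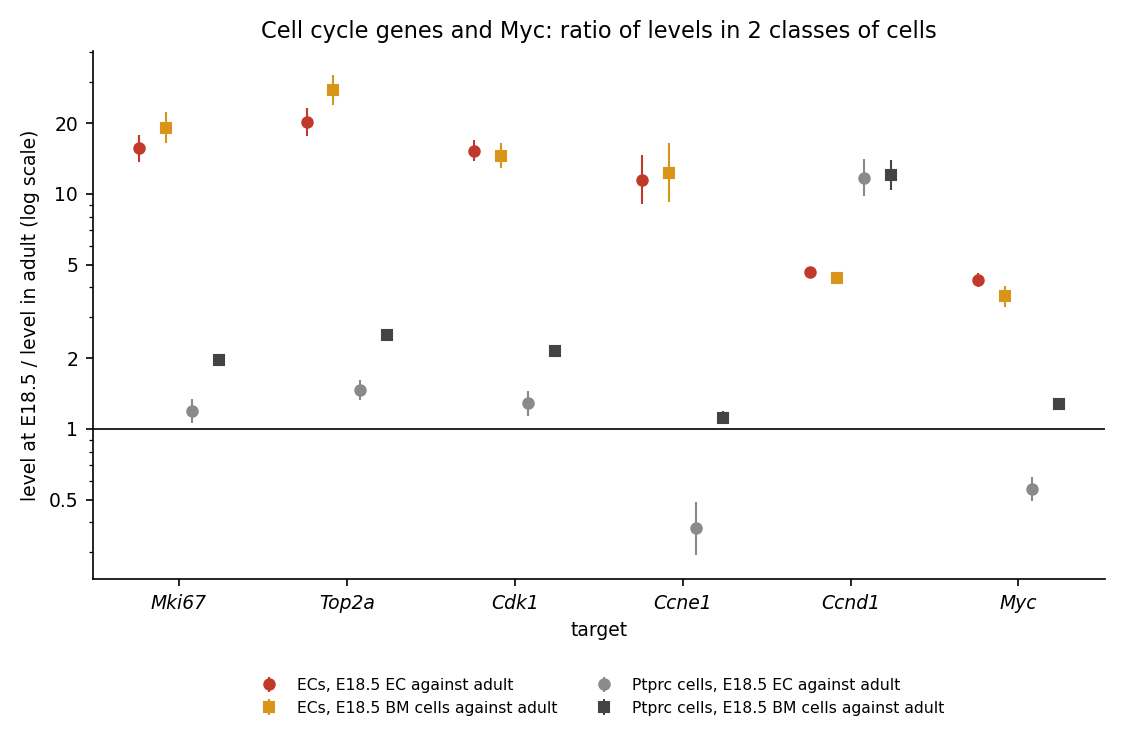
Level at E18.5 divided by level in the adult (y axis, log scale) for 6 targets (x axis), in ECs (red and gold) and in Ptprc cells (light and dark grey), with E18.5 EC (circles) or E18.5 BM cells (squares) as the E18.5 side; bars are 95% counting intervals and all ratios share the adult library. The ratios of Mki67, Top2a and Cdk1 stand at 14.5 to 27.6 in ECs and at 1.20 to 2.50 in Ptprc cells. The ratio of Ccnd1 is larger in Ptprc cells than in ECs, though its level is lower in them at either age.

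The promoters of the cell cycle genes that moved together are shown for the letters they share. The 250 bases before the RefSeq start (GRCm38.p6, minus strand, 5′ to 3′) are printed with 2 motifs in capitals on either strand, the CCAAT box (CCAAT or its complement ATTGG) and the cell cycle genes homology region (TTTGAA or TTCAAA).

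Mki67, chr7:135716380-135716629: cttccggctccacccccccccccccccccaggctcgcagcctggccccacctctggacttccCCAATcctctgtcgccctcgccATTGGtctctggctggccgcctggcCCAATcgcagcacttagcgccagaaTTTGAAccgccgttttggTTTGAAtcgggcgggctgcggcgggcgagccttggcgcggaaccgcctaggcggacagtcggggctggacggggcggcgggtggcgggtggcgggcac
Top2a, chr11:99024190-99024439: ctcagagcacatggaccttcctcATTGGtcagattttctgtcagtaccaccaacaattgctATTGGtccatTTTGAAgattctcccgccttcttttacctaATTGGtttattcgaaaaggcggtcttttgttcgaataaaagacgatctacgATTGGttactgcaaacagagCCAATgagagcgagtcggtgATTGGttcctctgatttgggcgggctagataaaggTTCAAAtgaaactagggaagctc
Cdk1, chr10:69352913-69353162: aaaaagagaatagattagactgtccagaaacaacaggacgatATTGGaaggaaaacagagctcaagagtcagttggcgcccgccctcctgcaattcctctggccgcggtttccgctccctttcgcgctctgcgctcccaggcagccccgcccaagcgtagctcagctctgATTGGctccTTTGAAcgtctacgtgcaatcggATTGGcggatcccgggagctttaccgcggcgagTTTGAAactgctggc

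CCAAT occurred 3 times before Mki67, 6 times before Top2a and 3 times before Cdk1, and TTTGAA occurred 2 times in each. The motifs did not overlap. Among all 32851 promoters of this length, 33.8% held CCAAT, 16% held TTTGAA and 5.55% held both. The 250 bases before Ccne1 held neither, and TTCCCGCC, a form of the E2F site found in 1.86% of all promoters, was in none of the 4. These matches describe letters and no binding.

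Capillary genes came next, and were higher in E18.5 ECs in 2 of 3 cases, against 30.2% of all compared targets. Apln (ENSMUST00000039026.7, GRCm38 chromosome X, 48025146 to 48034853, minus strand), the ligand apelin made by sprouting tip cells, had 10788 molecules in 1944 E18.5 ECs and 1218 in 290 adult ECs. Its level was 405 per 10000 (398 to 413) against 49.5 (46.8 to 52.4), with a ratio of 8.19 (7.72 to 8.70), and 671 (644 to 698) in ECs of E18.5 BM cells. After thinning, 58.4% (56.4 to 60.5) of E18.5 ECs and 10.9% (9.43 to 12.6) of adult ECs had Apln, against 1.56% and 1.45% of Ptprc cells. Cdh13, which encodes T-cadherin, stood at 254 (248 to 260) and 94.3 (90.5 to 98.2), with a ratio of 2.70 (2.57 to 2.83), with thinned shares of 59.8% and 31.1% beside 0.781% and 1.45% in Ptprc cells. Stc1, the secreted glycoprotein stanniocalcin 1, stood at 78.7 and 60.0 and lay within 2-fold. Both Apln and Cdh13 were thus found in most E18.5 ECs and in a minority of adult ECs, and were near 0 in blood cells of either age.

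Arterial markers showed no common direction. Sema3g (ENSMUST00000090180.3, chromosome 14, 31217860 to 31230352), a semaphorin of arterial endothelium, had 2276 molecules in E18.5 ECs and 10402 in adult ECs, at 85.5 (82.1 to 89.1) and 423 (415 to 431) per 10000. The adult level was 4.94 times as high (4.72 to 5.17), the thinned shares were 18.1% (16.5 to 19.7) and 49.2% (46.7 to 51.7), and Ptprc cells held 0.781% and 1.93%. Gja4 stood at 164 and 301 per 10000, with a ratio of 0.544 (0.524 to 0.565) that stayed within 2-fold, and Hey1 at 70.8 and 59.2, with a ratio of 1.20 (1.12 to 1.28). Cells with at least 2 molecules of Gja4 and Sema3g made up 14.8% (13.3 to 16.3) of thinned E18.5 ECs and 42.2% (39.8 to 44.7) of adult ECs. In E18.5 BM cells, where no sort on endomucin was made, their share was 13.4% (9.77 to 17.8), so it was low at E18.5 in both preparations. Stab1, the sinusoidal marker, was present in 70.8% (68.9 to 72.7) of thinned E18.5 ECs and 59.4% (56.9 to 61.8) of adult ECs, but in 41.9% (36.3 to 47.8) of those of E18.5 BM cells. The shares in Ptprc cells were 21.1%, 0.482% and 12.2%. Both Stab1 and at least 2 molecules of Gja4 and Sema3g were found in 7.45% of thinned E18.5 ECs and 16.9% of adult ECs. Stab1 alone thus did not set sinusoidal ECs apart from those with arterial markers. Its level of 514 against 301 per 10000 gave a ratio of 1.71 (1.66 to 1.76), and 128 in ECs of E18.5 BM cells turned the direction.

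Because ECs with arterial markers were more frequent in the adult, targets were also compared within ECs with at least 2 molecules of Gja4 and Sema3g (522 at E18.5, 828 adult) and within ECs with fewer (2431 and 835), a split added after the first results. The split uses those genes, so they are not compared within it, and it follows depth: the median cell had 110 and 141 molecules in the first set and 69 and 90 in the second. Hey1 was higher at E18.5 within each set, at 231 against 95 per 10000 with arterial markers (2.43-fold, 2.26 to 2.62) and 16.6 against 7.37 with fewer (2.25-fold, 1.74 to 2.93). Vwf, the clotting factor stored in ECs, stood at 273 against 52.5 with arterial markers (5.20-fold, 4.77 to 5.66) and at 233 against 279 with fewer (0.836, 0.798 to 0.877). Over all ECs Vwf stood at 243 and 145, within 2-fold, and ECs of E18.5 BM cells at 65.6, whose ratio to the adult of 0.453 (0.395 to 0.517) lay on the other side. Apln was higher at E18.5 in the first set by 12.7-fold (11.0 to 14.7) and in the second by 4.81-fold (4.51 to 5.14). Mki67 was 13.9-fold higher (11.3 to 17.2) in the first and 12.7-fold higher (10.7 to 15.1) in the second. The cell cycle contrast therefore stood in ECs with and without arterial markers. Vwf was chosen after its values were seen.

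**Figure D3:**
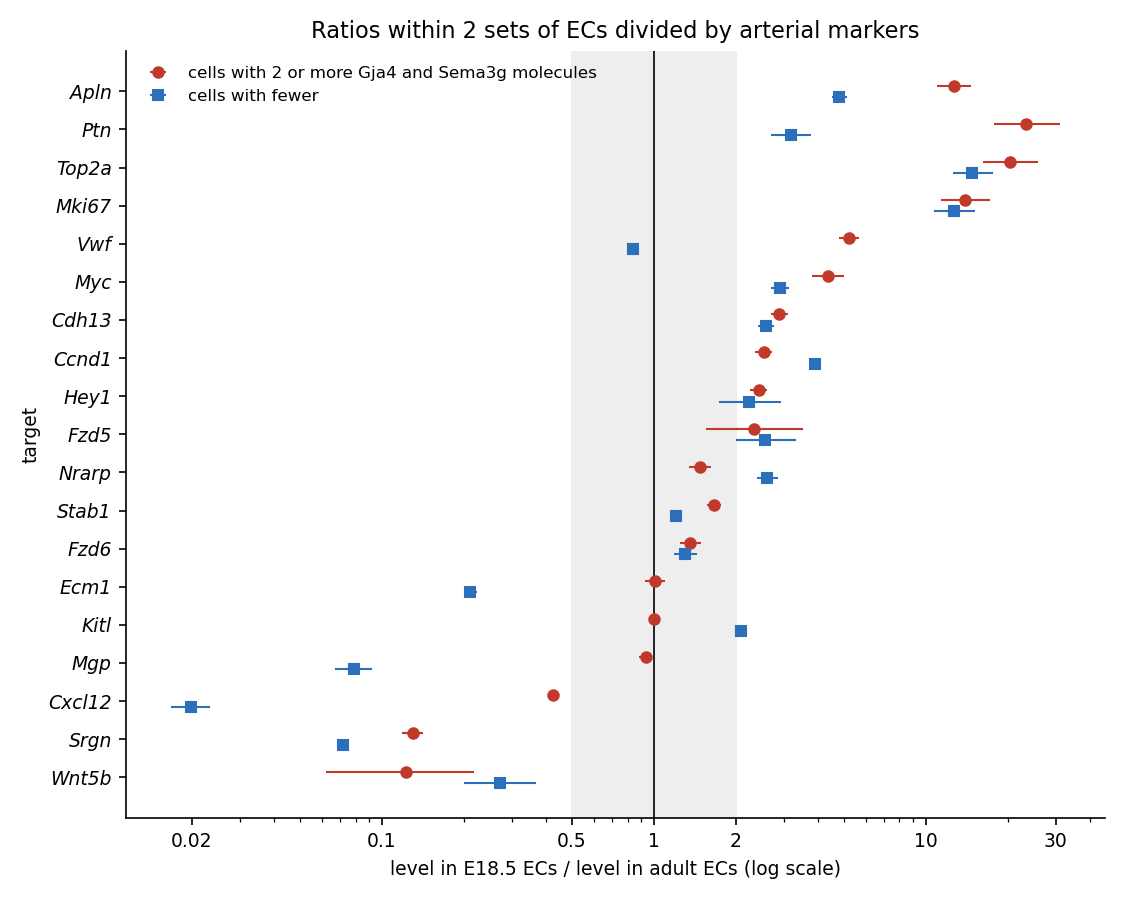
Level in E18.5 ECs divided by level in adult ECs (x axis, log scale) for 19 targets, within ECs with at least 2 molecules of Gja4 and Sema3g (red circles) and within ECs with fewer (blue squares); bars are 95% counting intervals and the grey band is 2-fold. The points of Vwf, Ecm1, Mgp and Kitl lie on different sides of an edge of the band, while Mki67, Top2a, Cdh13 and Hey1 stand on the same side in both.

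The niche factors for HSPCs divided. Kitl, whose product is the ligand of the receptor Kit on HSPCs, was the most alike: 9895 molecules in E18.5 ECs and 7210 in adult ECs gave 372 and 293 per 10000, with a ratio of 1.27, and thinned shares of 60.1% and 53.2% beside 0.781% and 7.71% in Ptprc cells. Its amplicons counted largely the same molecules, so an interval from the sum would be too narrow and is not given. With arterial markers Kitl stood at 375 and 373, and with fewer at 371 and 177. Cxcl12 (ENSMUST00000112871.7, chromosome 6, 117168574 to 117181366), the chemokine that holds HSPCs in the marrow, had 2235 molecules in 267 E18.5 ECs and 14397 in 1142 adult ECs. Its level was 84.0 (80.6 to 87.6) against 585 (576 to 595), 6.97-fold higher in the adult (6.66 to 7.29), and 37.2 in ECs of E18.5 BM cells. Ptprc cells had 1.89 at E18.5 and 654 in the adult, as high as ECs, but their thinned share was 27.0% beside 54.5% (52.0 to 56.9) in adult ECs and 7.58% in E18.5 ECs. At E18.5, Cxcl12 stood at 310 per 10000 in cells with arterial markers and 7.60 in the others. In the adult it stood at 725 and 383. Thus the adult excess was 2.34-fold (2.23 to 2.45) with arterial markers and 50.4-fold (42.8 to 59.7) with fewer, and the level in adult Ptprc cells lies above the latter. Without the 664 adult and 55 E18.5 ECs rich in markers of other cells, the ratio of E18.5 to adult Cxcl12 was 0.127.

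Pleiotrophin (Ptn), a growth factor for haematopoietic stem cells, showed the opposite order. It had 1632 molecules in 448 E18.5 ECs and 217 in 72 adult ECs, at 61.3 (58.4 to 64.4) and 8.82 (7.69 to 10.1) per 10000, with a ratio of 6.95 (6.03 to 8.05). ECs of E18.5 BM cells stood at 69.8 (61.4 to 79.1), and Ptprc cells of the compared libraries had 0 and 1.13. The thinned shares were 13.2% (11.8 to 14.7) and 3.16% (2.35 to 4.14). With arterial markers the levels were 93.3 and 3.98, and with fewer 50.5 and 15.8. Lepr, the leptin receptor known as a marker of adult reticular stroma, had 423 molecules in 373 E18.5 ECs and 117 in 75 adult ECs, with a ratio of 3.34 (2.72 to 4.14). Adult Ptprc cells stood above adult ECs for it, at 9.86 against 4.76 per 10000. The ratio was 1.36 with the less corrected molecule counts described next, so the size of this difference depended on the counts used.

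The correction of molecule counts acted unequally on the libraries for certain targets. The pipeline first merges identifiers that differ by substitutions (RSEC) and then applies a distribution-based correction (DBEC), which removes molecules with few reads and was used for all values here. In the ECs as a whole, DBEC kept 48.6% of the RSEC molecules at E18.5 and 50.4% in the adult. For Srgn it kept 16.3% and 64.5%, for Fzd5 42.1% and 16.9%, for Fzd9 51.8% and 6.67%, for Lepr 47.6% and 20.1%, and for Bglap3 57.7% and 100%. For some such targets the ratio from RSEC molecules is given beside the DBEC ratio.

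Frizzled receptors were higher at E18.5 in 3 of 7 cases and within 2-fold in 4, against 30.2% of all compared targets higher at E18.5. Of these 3 calls, those of Fzd5 and Fzd9 were lost with RSEC molecules. Summed over the 8 receptors seen in both, there were 3508 and 2421 molecules, at 132 and 98.4 per 10000, with a ratio of 1.34 (1.27 to 1.41). The thinned shares with any of them were 46.7% (44.6 to 48.8) and 38.9% (36.4 to 41.3), against 16.4% and 25.8% of Ptprc cells, and 32.2% in ECs of E18.5 BM cells. Fzd6, a receptor of planar polarity signalling, had 2346 and 1861 molecules and stood at 88.2 and 75.6, with a ratio of 1.17 (1.10 to 1.24). Fzd4, the endothelial receptor for norrin, stood at 17.0 (15.5 to 18.6) and 12 (10.7 to 13.5), with a ratio of 1.41 (1.22 to 1.64). In ECs of E18.5 BM cells the direction of both turned, to 0.610 (0.517 to 0.716) for Fzd6 and 0.749 (0.503 to 1.08) for Fzd4. Both were low in Ptprc cells, with Fzd6 at 1.26 and 5.75 and Fzd4 at 0.631 and 0.308 per 10000. Fzd5 had 434 molecules in 352 E18.5 ECs and 124 in 102 adult ECs, with a ratio of 3.24 (2.65 to 3.98) that was 1.26 with RSEC molecules, and Ptprc cells stood at 13.3 and 10.8 per 10000. Fzd9 had 29 and 4 molecules, with a ratio of 6.70 (2.35 to 26.2) that was 0.833 with RSEC molecules, so its direction was not fixed by these data. Fzd3 had 60 and 18 molecules, with a ratio of 3.08 (1.8 to 5.55), and 2.70 with RSEC molecules. Fzd7 (145 and 80 molecules) and Fzd8 (41 and 37) lay within 2-fold. Fzd2 had 1 molecule on each side and was not compared.

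Wnt ligands differed in kind more than in sum. Of the 11 ligands seen in both files, 6 had 20 molecules and were compared; 2 were higher at E18.5 and 3 in the adult, counts that stand beside 30.2% and 40.7% of all compared targets. Summed, there were 552 molecules at E18.5 and 465 in the adult, at 20.7 and 18.9 per 10000, with a ratio of 1.10 (0.969 to 1.24) that included equal levels. As thinned shares the order was the other way, with a ligand in 4.81% (3.97 to 5.78) of E18.5 ECs and 8.72% (7.37 to 10.2) of adult ECs, beside 0.781% and 3.37% of Ptprc cells. No order was read from these shares, which went against the level.

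Wnt2, a ligand that acts through beta-catenin, gave 356 of the 552 molecules of the E18.5 sum. They lay in 81 of the 2953 E18.5 ECs and 9 molecules in 8 of the 1663 adult ECs. The levels were 13.4 (12 to 14.8) and 0.366 (0.167 to 0.694) per 10000, beside 0 and 1.23 in Ptprc cells, with a ratio of 36.6 (19.1 to 80.6), or 18.6 with RSEC molecules. In ECs of E18.5 BM cells there were 0 molecules, which allows up to 0.845 per 10000 by the limit of 3 counts and a share of up to 1.01% of the thinned cells. The E18.5 libraries thus differed by more than counting error, and between ECs of E18.5 BM cells and adult ECs no difference in Wnt2 was detectable at this depth. Of the 81 cells with Wnt2, 13 held at least 50% of its molecules, and 80 had Stab1, where 82.1% of all E18.5 ECs did, unthinned. Cells with Wnt2 had Stab1 at 1474 per 10000 (1399 to 1552) against 478 in the other E18.5 ECs, Vwf at 595 (548 to 646) against 230, and Ecm1 at 251 (220 to 284) against 92.3. They had little Apln, at 87.7 (70.1 to 108) against 418, and hardly any Sema3g, Cxcl12 and Ptn, with 1, 2 and 2 molecules. Gja4 was present, at 107 (87.6 to 130) against 166, and 21 of the 81 cells had at least 2 molecules of Gja4 and Sema3g, where 17.7% of all E18.5 ECs did. Fzd5 stood at 46.9 (34.3 to 62.6) in them against 15.2. Wnt9b had 66 molecules at E18.5, of which 63 lay in cells with Wnt2, and 26 in the adult. Its ratio of 2.35 (1.47 to 3.85) rested on 22 and 13 cells. The cells with Wnt2 were deeper, with a median of 110 molecules against 74, and this profile is a description of cells chosen by that gene.

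Wnt5b, a ligand that acts mainly without beta-catenin, gave 338 of the 465 molecules of the adult sum. It had 80 molecules in 71 E18.5 ECs and 338 in 182 adult ECs, at 3.01 (2.38 to 3.74) and 13.7 (12.3 to 15.3) per 10000, and was 4.57-fold higher in the adult (3.57 to 5.91). The thinned shares were 1.69% (1.20 to 2.32) and 6.63% (5.46 to 7.97), beside 0 and 0.964% of Ptprc cells. ECs of E18.5 BM cells held 1 molecule. Of the 182 adult cells with Wnt5b, 175 had Stab1, where 74.9% of all adult ECs did, unthinned. In cells with Stab1 the levels of Wnt5b were 3.14 and 18.1. Without Stab1 there were 10 molecules on each side, with a ratio of 1.52 (0.566 to 4.06) that allows either direction. Wnt9a had 17 and 49 molecules, 3.12-fold higher in the adult (1.76 to 5.77). Wnt4 had 3 and 25, with a ratio of 0.111 (0.0214 to 0.364), and Ptprc cells of the adult stood above adult ECs for it, at 4.21 against 1.02 per 10000. DBEC kept 9.77% of its RSEC molecules in adult ECs, and its ratio from RSEC molecules was 0.0174. Wnt11 had 13 and 12 molecules, with an interval of the ratio from 0.421 to 2.40. The other 5 ligands seen in both files, Wnt5a, Wnt6, Wnt8a, Wnt10a and Wnt10b, had under 20 molecules in ECs and were not compared.

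**Figure D4:**
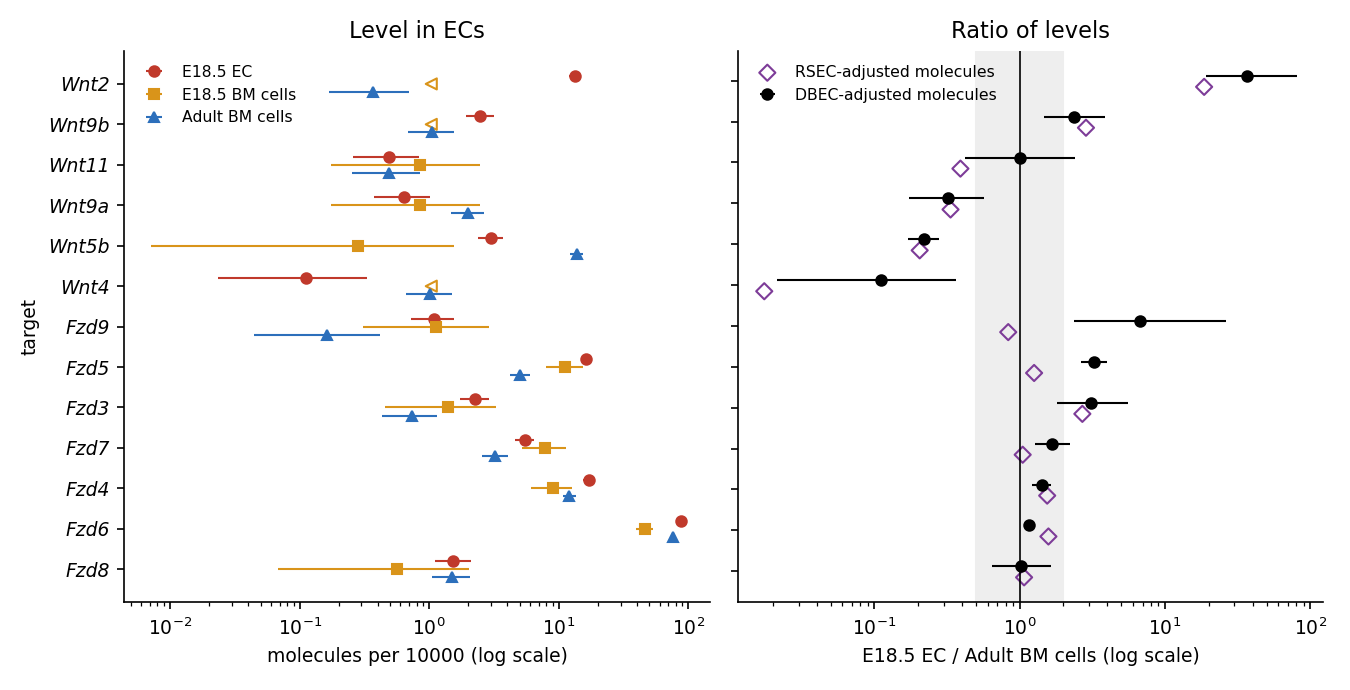
Left: level in ECs of each library in molecules per 10000 (log scale) for 6 Wnt ligands and 7 frizzled receptors, with 95% counting intervals; an open triangle is the upper bound of a count of 0. Right: ratio of E18.5 EC to adult ECs (log scale) from DBEC-adjusted molecules (filled circles, with intervals) and RSEC-adjusted molecules (open diamonds), with a grey band for 2-fold. Wnt2 lies far to the right, at 36.6, and Wnt5b to the left, and Fzd5 and Fzd9 move into the band with RSEC-adjusted molecules.

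Other components of the Wnt pathway went in either direction. Wls, which carries Wnt ligands to the cell surface, stood at 113 and 75.8 per 10000, with a ratio of 1.48 (1.40 to 1.57), with thinned shares of 39.4% and 32.5% beside 25.8% and 29.6% in Ptprc cells. With ECs of E18.5 BM cells, at 56.6, the ratio to the adult turned to 0.746 (0.642 to 0.863). Of the R-spondin receptors Lgr4 was higher at E18.5, with 439 and 138 molecules and a ratio of 2.94 (2.42 to 3.59), or 1.94 with RSEC molecules, beside 8.21 and 7.09 per 10000 in Ptprc cells and 16.5 and 5.61 in ECs. Among 7 intracellular components, 2 were higher at E18.5, close to the 30.2% of all compared targets, and 5 lay within 2-fold. Lef1, a transcription factor that beta-catenin binds, had 41 and 59 molecules, with a ratio of 0.643 (0.421 to 0.973). In ECs of E18.5 BM cells it stood at 19.1 per 10000, or 7.98-fold above the adult (5.55 to 11.5). Those 68 molecules lay in 17 cells, 10 of which held 89.7%, and Ptprc cells of that library stood at 69.8 per 10000. The thinned shares, 4.03% (2.10 to 6.93) of these ECs and 1.90% (1.28 to 2.69) of adult ECs, overlapped. Apc, a scaffold of the complex that degrades beta-catenin, stood at 141 and 61.1, with a ratio of 2.30 whose interval is withheld since its amplicons counted largely the same molecules. Axin1, another scaffold of that complex, stood at 55.4 and 27.6, with a ratio of 2.01 (1.83 to 2.20) just past 2-fold, and Ptprc cells stood above ECs for it, at 119 and 78.9. Dvl1, which relays the signal from frizzleds, stood at 66.5 in each, with an interval of the ratio from 0.934 to 1.07. The secreted inhibitors Dkk2 and Dkk3 had 35 and 60 molecules at E18.5 and 60 and 32 in the adult, both within 2-fold. Nrarp, a target and inhibitor of Notch, stood at 146 and 70.9, with a ratio of 2.06 (1.94 to 2.18), with thinned shares of 47.1% and 27.6% beside 0.781% and 12.5% in Ptprc cells.

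Matrix genes went in either direction. Fbn1, the microfibril protein fibrillin 1, had 341 and 139 molecules, with a ratio of 2.27 (1.86 to 2.78), beside 9.24 per 10000 in adult Ptprc cells against 5.65 in adult ECs. Fbln5, an elastic fibre protein, stood at 193 and 258 within 2-fold, and Col12a1, with 21 and 3 molecules, had a ratio of 6.47 (1.93 to 33.9), with 0 molecules in ECs of E18.5 BM cells. Ecm1 was 2.50-fold higher in adult ECs (2.39 to 2.62), but equal in ECs with arterial markers, at 121 and 120 per 10000. Mgp, an inhibitor of calcification, was 2.91-fold higher in the adult (2.77 to 3.06), and adult Ptprc cells stood above ECs for it, at 627 against 225. With arterial markers Mgp stood at 278 and 298. Over all E18.5 ECs, however, its molecules lay in 104 cells, 10 of which held 67.5%. The thinned shares of all ECs were 2.90% (2.24 to 3.68) at E18.5 and 22.4% (20.4 to 24.6) in the adult.

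**Figure D5:**
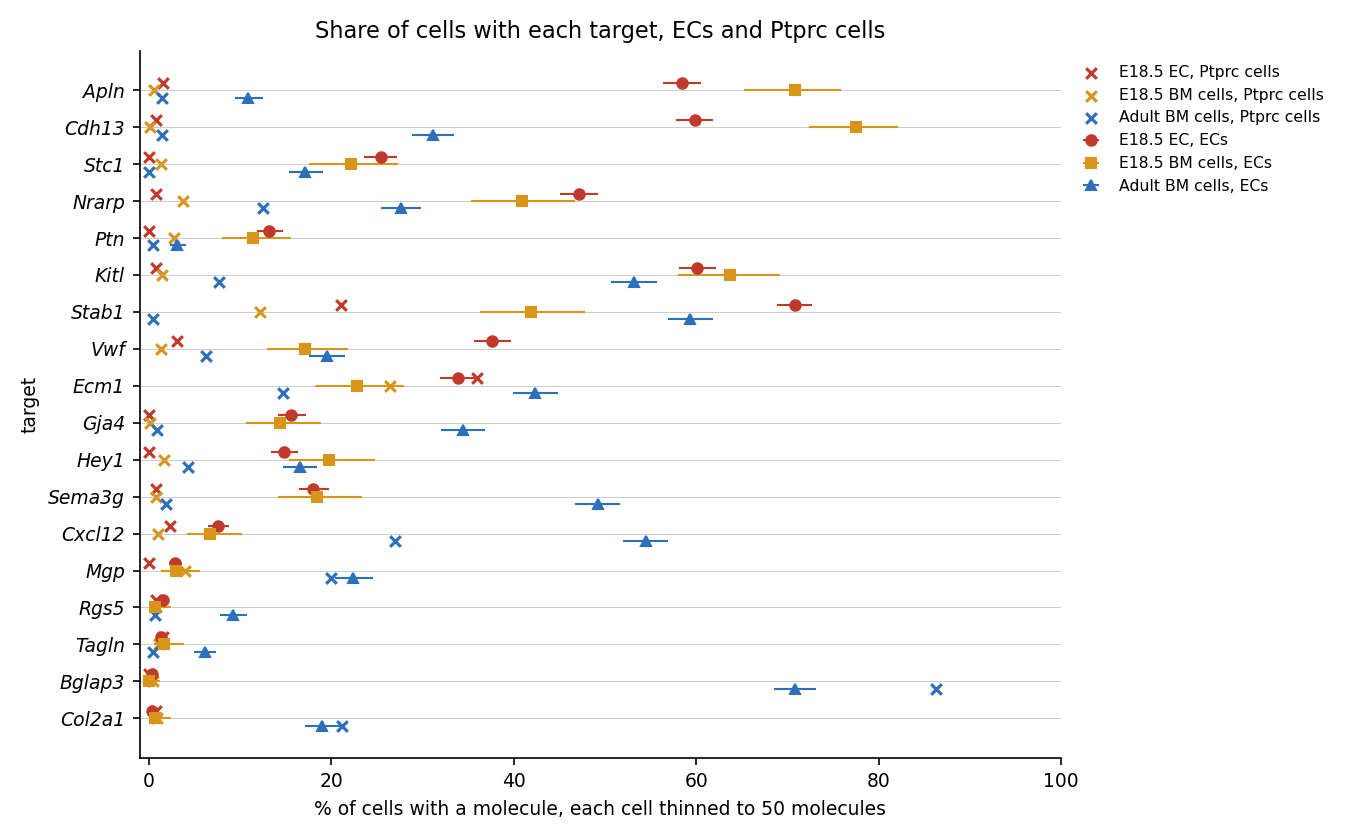
Share of cells with a molecule (x axis, %) after thinning each cell to 50 molecules, for 18 targets, in ECs of E18.5 EC (red circles), E18.5 BM cells (gold squares) and the adult library (blue triangles) with 95% exact binomial intervals; crosses of the same colours mark Ptprc cells of each library. Apln and Cdh13 are present in over 58% of ECs in both E18.5 libraries and near 0 in Ptprc cells. Bglap3 in adult ECs lies below the cross of adult Ptprc cells, at 70.9% against 86.3%. Col2a1 lies slightly below, at 19.0% (17.1 to 21.0) against 21.2% (17.4 to 25.5), with overlapping intervals.

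Markers of bone-forming, cartilage and mural cells were higher in adult ECs, and many of them were also high in adult Ptprc cells. The listed fibroblast-like markers divided, with 1 higher at E18.5, 2 higher in the adult and 1 within 2-fold. Of these Ccn3 was higher at E18.5, at 41.1 against 19.6 per 10000. The osteoclast marker Acp5 was also higher at E18.5, with a ratio of 2.44 (1.58 to 3.84), and stood at 542 in E18.5 Ptprc cells. All 7 bone-forming, 4 cartilage and 4 mural markers with 20 molecules were higher in adult ECs, where 40.7% of all compared targets were. Bglap3, an osteocalcin gene, had 15 molecules at E18.5 and 6747 in 1521 adult ECs, and stood at 274 per 10000 (268 to 281) in adult ECs and 1034 in adult Ptprc cells. Reads of Bglap, Bglap2 and Bglap3, which are close copies, may have been assigned to the wrong member, and of the RSEC molecules of Bglap in adult ECs DBEC kept 4.13%. Prg4, a joint lubricant, had 4 and 1051 molecules with 633 per 10000 in adult Ptprc cells against 42.7 in ECs, and Col2a1, the cartilage collagen, 15 and 1596 with 1112 against 64.9. Acan, a cartilage proteoglycan, had 0 molecules at E18.5 and 75 in the adult, at least 27.0-fold higher by the limit of 3 counts. Alpl, Cp, Cytl1, Pth1r, Bglap and Bglap2 were 16.1 to 33.9-fold higher in adult ECs, and all of these also stood at 8.83 or more per 10000 in adult Ptprc cells. By thinned share, however, Alpl was in 12.2% (10.6 to 13.9) of adult ECs and 4.58% (2.78 to 7.06) of adult Ptprc cells. Of the 35 targets higher in adult ECs, 23 had as high or a higher level in adult Ptprc cells. For the 26 higher at E18.5, 8 had as high or a higher level in E18.5 Ptprc cells. Among the 25 targets within 2-fold this held for 7 in the adult library and 7 in E18.5 EC, so the E18.5 count was near that base. By thinned shares, 13 of the 35 had a lower bound in adult ECs above the share in adult Ptprc cells, whose own error was left out. Of the 25 targets within 2-fold, 11 did not meet this in the adult library. Sema3g, Cxcl12, Wnt5b, Ecm1, Rgs5 and Tagln were among the 13. Mgp and Wnt9a also met it, but their intervals overlapped those of Ptprc cells. For Mgp these were 20.4 to 24.6% in ECs and 16.3 to 24.2% in Ptprc cells.

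Among mural genes, Rgs5 and Tagln did not follow the Ptprc cells. Rgs5, a pericyte gene, had 244 molecules in 56 E18.5 ECs and 5291 in 233 adult ECs, at 9.17 (8.06 to 10.4) and 215 (209 to 221) per 10000, a 23.5-fold excess in the adult (20.6 to 26.8), or 12.2-fold with RSEC molecules. Adult Ptprc cells stood at 5.55. In the adult, 4952 of the 5291 molecules lay in ECs with at least 2 molecules of Gja4 and Sema3g, at 340 per 10000 against 33.7 in the others, and 10 cells held 39.0%. Notch3, the Notch receptor of mural cells, had 54 and 692 molecules and was 13.9-fold higher in the adult (10.5 to 18.6). Without cells rich in markers of other types, which are partly chosen by Rgs5, the ratio of E18.5 to adult was 0.277 for Rgs5 and 0.103 for Notch3. Whether mural cells attached to ECs gave these molecules was not tested. Among haematopoietic genes, Srgn, a proteoglycan of blood cell granules that was chosen after its values were seen, stood at 106 and 1019 per 10000, and its adult excess of 9.65-fold was 2.52-fold with RSEC molecules. Ptprc cells stood above ECs for Srgn, at 2756 in E18.5 EC and 1585 in the adult. Its thinned shares were 33.7% and 90.7% in ECs, beside 96.9% and 93.3% in Ptprc cells. Mmp9 had 4 and 63 molecules, all 63 in 10 adult ECs, and its ratio turned to 1.15 with RSEC molecules, of which DBEC had kept 1.96% at E18.5 and 39.9% in the adult.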

How the data were processed

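Targeted single-cell RNA sequencing was done by the authors on a microwell platform with unique molecular identifiers, 1 library per group, after pooling animals. Per the file headers the authors used the BD Rhapsody Targeted Analysis Pipeline 1.8; the study's methods name another release, and the genome build is labelled mm10. The deposited counts are reads and molecules per cell barcode and amplicon, raw, after RSEC and after DBEC, with no normalization. DBEC-adjusted molecule counts were summed per cell and gene symbol. Cells were chosen, thinned (seed 1) and compared with scipy 1.17.1, pandas 2.3.3 and numpy 2.4.6 under Python 3.11.15, and figures were drawn with matplotlib 3.10.9. Levels have exact Poisson intervals, ratios exact conditional binomial intervals and shares Clopper-Pearson intervals, all at 95% and for counting error only. A target was called at 2-fold with at least 20 molecules in both sets together, and a count of 0 was set to the limit of 3 counts. With 1 library per group no test was made.

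Depth was 432987 molecules in E18.5 EC and 6304495 in the adult library, with medians of 83 and 242 per cell. The functions were tested on simulated data with known folds. Named targets were the 12 largest ratios in each direction, all Wnt ligands and frizzleds with 20 molecules, and the members past 2-fold of fixed lists with those that had the most molecules. The cells, lists and rule were chosen with earlier results of these data known, and further targets are named as chosen after their values were seen. Transcript coordinates are from GENCODE vM21 (GRCm38), and promoters are from RefSeq (GRCm38.p6), where all 4 genes looked up were found. Alternatives are given in the closing section. The result of 1 target is not reported here.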

Additional observations from a re-analysis of the deposited data

How the results depend on the processing

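The counts of targets past 2-fold moved by less than 1.5 times under every alternative run: 19 to 31 were higher at E18.5 and 25 to 44 in the adult. The targets called changed more: with ECs of E18.5 BM cells 15 of the 26 and 29 of the 35 kept their call, those of Apc (1.88), Axin1 (1.57), Lgr4 (1.71), Nrarp (1.72) and Fbn1 (1.69) were among the lost, and Postn crossed over. Among targets within 2-fold, those cells turned the direction of Wls, Fzd4, Fzd6, Stab1, Vwf and others. Raw molecules gave 20 and 44, so that 31.3% of the calls were higher at E18.5 in place of 42.6%. The median log2 ratio was 0.02, and moved to -0.18 with RSEC-adjusted molecules, -0.34 with raw molecules and 0.24 without Pecam1 and Kdr in the scale. Of 766 values of the 41 named targets past 2-fold, 760 kept their direction, and 36 of the 41 targets kept it wherever they had a value. A further 13 values could not be given, because the setting removed the target or a count of 0 left the direction unknown, as for Wnt2 and Col12a1 with ECs of E18.5 BM cells (0 molecules of each). The others were Fzd9 (0.833) and Mmp9 (1.15) with RSEC-adjusted molecules, Wnt5b (1.52) and Wnt9b (0.303) in cells without Stab1, Wnt9b (0.799 at the limit of 3 counts, against 0 molecules) with ECs of E18.5 BM cells, and Ecm1 (1.01) in cells with 2 or more molecules of Gja4 and Sema3g. The summed Wnt ligands had no fixed direction: the ratio of E18.5 to adult was 0.815 with RSEC-adjusted molecules, 1.28 without Pecam1 and Kdr in the scale, 0.690 as a mean over cells, 0.728 in thinned cells, 0.924 with at least 10 molecules and 10% of Pecam1 and Kdr, 0.134 with ECs of E18.5 BM cells, 1.30 in cells without Mki67, Top2a and Cdk1, and 0.949 without Bglap, Bglap2, Bglap3, Prg4, Col2a1 and Srgn in the scale. The summed frizzleds stayed above 1 except with ECs of E18.5 BM cells (0.798). Their ratio was 1.47 with RSEC-adjusted molecules, 1.56 without Pecam1 and Kdr in the scale, 1.26 with at least 10 molecules and 10% of Pecam1 and Kdr, 1.24 with both genes present, 1.25 in cells with Stab1, 1.64 in cells without it, 1.57 in cells without Mki67, Top2a and Cdk1, 1.42 in cells with under 2 molecules of Gja4 and Sema3g, and 1.16 without the bone, cartilage and Srgn molecules in the scale. The splits by Mki67, Top2a and Cdk1 and by Gja4 and Sema3g, and the last scale, were chosen after seeing the data; the cause of these shifts was not tested. No paired analysis was possible because each group had 1 library. Depth limits the ratios of rare targets: Col12a1, Fzd9, Wnt2 and Wnt9b rested on 3, 4, 8 and 13 adult cells.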

Other observations

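Several targets of the panel that belong to none of the groups above were near equal in the ECs of both ages or differed between the libraries. They were chosen after their values were seen. Mecom, a transcription factor of haematopoietic stem cells and ECs, stood at 64.7 per 10000 (61.7 to 67.8) in E18.5 ECs, 65.8 (62.6 to 69.1) in adult ECs and 64.2 (56.1 to 73.1) in ECs of E18.5 BM cells, with a ratio of 0.984 (0.918 to 1.05) between the first pair. It was present in 18.4 to 21.7% (interval) of thinned E18.5 ECs and 19.4 to 23.5% of adult ECs, against 2.34% and 4.58% of Ptprc cells. Igfbp7, an insulin-like growth factor binding protein of vessels, was present in 91.5% of thinned E18.5 ECs and 91.9% of adult ECs, and in 3.91% and 11.1% of Ptprc cells. Its level was lower at E18.5, at 1356 against 1800 per 10000, with a ratio of 0.753 within 2-fold. Ccar2, a nuclear regulator of transcription, stood at 117 (113 to 121) and 36.2 (33.9 to 38.7), with a ratio of 3.23 (2.99 to 3.48), but at 69.5 and 72.3 in Ptprc cells. Postn, a matricellular gene of fibroblasts, had 25 molecules in E18.5 ECs and 167 in adult ECs, yet 250 molecules in the 373 ECs of E18.5 BM cells, so its order depended on which E18.5 library was used. With RSEC molecules its ratio of E18.5 EC to the adult was 0.509 in place of 0.138.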
